A study of Mus musculus with 30 samples.

Results

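Prdm16 and the other PRDM genes on the array were followed in the hypothalamus and the eye of wild-type (WT) mice and of mice that lack a working copy of the clock gene Per3. The rule took every probe that carried the gene name Prdm1, Prdm4, Prdm6, Prdm8, Prdm10, Prdm15 or Prdm16 in the hypothalamus files, and the same probes in the eye files. It found 8 probes of 6 genes among 41174 probes, since no row carried the name Prdm10, which was not analysed here. Prdm16 was singled out for its difference between the genotypes, so that difference is given as a description without a test. The paralogs were chosen by name. RNA came from male Per3-/- mice and their WT littermates on a C57Bl/6J background, which had lived through 17 cycles of 3.5 h light and 3.5 h dark and were killed in the second hour of the last light period. The hypothalamus samples were blocks of tissue around the optic chiasm (8 WT and 8 Per3-/- mice), and the eye samples were whole eyes (7 and 7), each on its own array. Brain and eyes were taken from the same set of mice, and the main tests between tissues did not pair them. A bulk sample cannot tell fewer cells of a type from less RNA per cell. Mice are named by the replicate number of their sample within a tissue, and eye samples numbered 2 (WT) and 1 (Per3-/-) are not analysed here.

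PRDM proteins are regulators of transcription that pair a PR domain, related to the SET domain of histone methyltransferases, with zinc fingers that contact DNA. Many act as repressors by recruiting corepressors or histone-modifying enzymes, and members of the family decide between cell fates in blood, fat, germ cells, nervous system and retina. Prdm16 is known for the choice of the brown fat fate and for the upkeep of neural stem cells, Prdm1 (Blimp-1) for plasma cells and for the choice between photoreceptor and bipolar cell in the retina, and Prdm8 for retinal bipolar cells and for work with the factor Bhlhe22.

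The signal of every gene rests on 1 or 2 probes of 60 bases, so the stretch through which Prdm16 was read matters for all values below. For each probe, 30 bases (5′ to 3′, as in the array files) are shown that contain the longest run of letters shared with the Prdm16 probe, which is in capitals. For Prdm16 the capitals mark the longest run shared with any other probe shown, that of Prdm4.
Prdm16 (A_51_P514139): gaaagacgtggGCAAGTGctatggagtgag
Prdm4 (A_52_P289893): acatgctgggtagtctctagtcaGCAAGTG
Prdm4 (A_52_P461722): caCAAGTGtgatttttgtagcaaggctttt
Prdm8 (A_51_P142972): gtttccagggggAAGTGCatgtatcatgaa
Prdm1 (A_51_P338746): aggttaaccaaaGCATGacctgacattgac
Prdm15 (A_51_P476900): tcacatctgtttGTATGgtgataaataaag
Prdm15 (A_52_P262118): tgATCGccagctacagctagataactccat
Among the probes shown, no run shared with the Prdm16 probe was longer than 7 of the 60 bases. The Prdm16 probe lies on the minus strand of chromosome 4, and the files (assembly mm9) place only 5 of its 60 bases, at chr4:153690234-153690238. The others were placed over their whole length, Prdm8 at chr5:98616226-98616285 (plus strand), Prdm1 at chr10:44157291-44157350, Prdm4 at chr10:85355190-85355249 and chr10:85363600-85363659, and Prdm15 at chr16:98013134-98013193 and chr16:98016058-98016117 (all minus strand). The Prdm6 probe is not shown. The exons and untranslated regions at these positions were not annotated here.

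Levels are log2 signals relative to the 75th percentile of the array, so 0 is that percentile, and levels of different probes cannot be compared. The 75th percentile lay at an intensity of 1408 to 2207 on the hypothalamus arrays and 1131 to 1644 on the eye arrays, and the scanner software called 68.0% to 80.8% of the probes of an array well above background. Precision is limited by how many arrays there are. The 8 member probes passed that test on all arrays, except the Prdm15 probe A_52_P262118, which was so on 5 of 7 eyes of Per3-/- mice. Eye markers (rhodopsin and 6 others) were all well above background on every eye array and all 7 were higher there than in the hypothalamus, and all 6 hypothalamic markers (vasopressin among them) were higher in the hypothalamus, in both genotypes (limma, adjusted p under 0.05). The Per3 probe differed by -0.51 in the hypothalamus of Per3-/- mice (95% confidence interval -0.70 to -0.32, adjusted p = 0.067, limma), with an eye difference of -0.45 (-0.95 to 0.05, adjusted p = 1), stayed well above background, and whether it lies within the disrupted part of the gene was not tested. Summed pituitary markers reached 10.2 in the hypothalamus of Per3-/- mouse 1 and 5.598 in that of WT mouse 5, against 1.97 to 3.62 on the other 14 hypothalamus arrays. The p-values measure the spread between mice.

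Prdm16 stood lower in Per3-/- mice in both tissues, by 17.6-fold in the eye and by 7.26-fold in the hypothalamus. In the hypothalamus its level ran from 0.10 over a median of 0.36 to 0.80 in WT mice, and from -2.92 over -2.44 to -1.99 in Per3-/- mice. In the eye it ran from 1.09 over 1.39 to 1.48 in WT and from -3.24 over -2.69 to -2.51 in Per3-/- mice. The ranges of the genotypes were apart in either tissue, with all Per3-/- mice at the low end. The genotype means differed by -2.86 in the hypothalamus (0.39 ± 0.21 in WT and -2.47 ± 0.30 in Per3-/- mice, SD, n = 8 each) and by -4.14 in the eye (1.34 ± 0.15 and -2.80 ± 0.27, SD, n = 7 each). Both genotypes were present on all 4 slides used for a tissue, and within every slide the difference kept its sign, with -3.01 to -2.76 in the hypothalamus and -4.41 to -3.92 in the eye. The residual signal was well above background on every Per3-/- array of both tissues, where the dimmest probe still well above background lay between -9.0 and -7.72. With the normexp background correction the eye difference was -3.55.

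**Figure D1:**
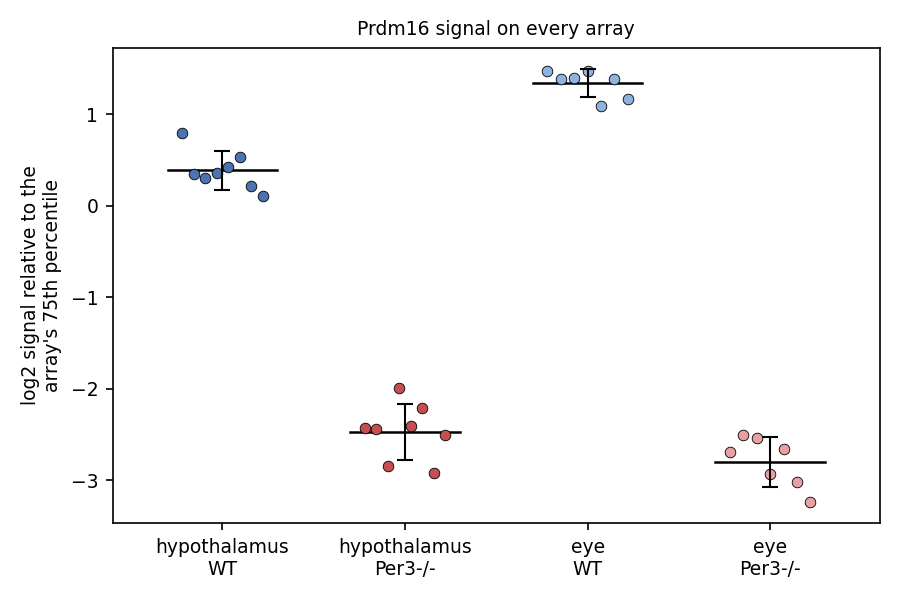
Prdm16 signal (log2, relative to the 75th percentile of the array, y axis) on each of the 30 arrays, by tissue and genotype (x axis). Points are mice, horizontal lines means and bars SD; the points of Per3-/- mice lie between -3.24 and -1.99, below all WT points, which lie between 0.10 and 1.48.

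Between the tissues Prdm16 was compared within each genotype. In WT mice the eye was higher than the hypothalamus by 0.95 (95% confidence interval 0.75 to 1.16, 1.94-fold, adjusted p = 1.77e-07 from limma), and every eye lay above every hypothalamus. In Per3-/- mice the eye was lower by 0.33 (interval -0.64 to -0.02, adjusted p = 0.0517), the ranges overlapped, and the test was not passed. The test was passed with quantile normalization (-0.71, adjusted p = 0.00113) and when only probes well above background were kept (-0.33, adjusted p = 0.0403), while with normexp it was -0.09 (adjusted p = 0.684). Without eye 3, eye 4, hypothalamus 3 or hypothalamus 7 of the Per3-/- mice, each left out alone, it ran from -0.39 to -0.37 (adjusted p = 0.0192 to 0.0372). By group mean the levels fell in the order WT eye, WT hypothalamus, Per3-/- hypothalamus and Per3-/- eye. The last pair overlapped and was not told apart by the main test. The genotype difference of the eye minus that of the hypothalamus was -1.28 on the log2 scale, a value tied to the contrast for which Prdm16 was chosen. A dependence of the tissue order on genotype is tied to that contrast too. The tissues were hybridised on separate slides and scanned on separate days, so tissue and array run cannot be told apart.

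No probe of the 5 paralogs passed the test for a rise where Prdm16 was low. In the hypothalamus 0 of their 7 probes were called between the genotypes (limma, adjusted p under 0.05), and 0 had an unadjusted p under 0.05. Over all probes 0.0413% were called, 0.00729% as higher in Per3-/- mice, and 2.82% had an unadjusted p under 0.05. In the eye the counts were again 0 called and 0 at an unadjusted p under 0.05, beside 0.0194% (0.0% as higher) and 1.8% of all probes. The median difference of the 7 probes was 0.06 in either tissue, against -0.01 in the hypothalamus and 0.00 in the eye over all probes. The groups overlapped for each of the 7 probes in both tissues, while groups without overlap made up 0.0437% of the array in the hypothalamus and 0.0704% in the eye. For a difference between the 2 genotype effects, 0 of the 7 probes passed (0 also at an unadjusted p under 0.05, against 1.94% of all probes), and 0.00486% of all probes did.

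The widths of the intervals say how large a rise could have been missed. They were narrow for the Prdm4 probes, a regulator of neural progenitor growth: A_52_P289893 differed by 0.00 in the hypothalamus (95% confidence interval -0.10 to 0.11) and by 0.06 in the eye (-0.06 to 0.18), and A_52_P461722 by -0.05 (-0.21 to 0.12) and 0.09 (-0.09 to 0.26). The brighter Prdm15 probe, A_51_P476900, differed by 0.06 (-0.11 to 0.23) and -0.11 (-0.28 to 0.05). Prdm15 is required in early development, where it activates Rspo1 and Spry1. The intervals for Prdm6, a repressor of smooth muscle differentiation, ran from -0.20 to 0.29 in the hypothalamus around a difference of 0.05, and from -0.49 to 0.63 in the eye around 0.07. In the hypothalamus those of Prdm1 (0.41, -0.17 to 1.0) and Prdm8 (0.13, -0.56 to 0.82) were wider and reached up to a 2.0-fold rise for Prdm1. In the eye they were 0.17 (-0.07 to 0.41) for Prdm1 and -0.06 (-0.25 to 0.12) for Prdm8. With each array left out in turn, the Prdm1 difference in the hypothalamus ran from 0.15 to 0.50, and it was lowest without Per3-/- mouse 7. The dim Prdm15 probe A_52_P262118 differed by 0.18 (-0.39 to 0.74) and by -0.14 (-0.97 to 0.70), the widest interval of the 7 in the eye.

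The PRDM genes outside the rule were read with them from a list of 8, of which 4 had a probe. Mecom (Evi1), the closest relative of Prdm16 and like it a partner of CtBP corepressors, differed between genotypes by 0.26 in the hypothalamus (-0.06 to 0.58) and by -0.10 in the eye (-0.55 to 0.35) at its brightest probe, A_52_P418901. Prdm2 (Riz1) lies on the same chromosome as Prdm16, 10.97 Mb away, and differed by 0.04 (-0.09 to 0.17) and -0.04 (-0.21 to 0.13). Prdm11 was well above background on 4 of 8 hypothalamus arrays of each genotype, and Prdm9, the gene that places meiotic recombination, on no array of either tissue. Of the 4 genes, 0 were called and 0 had an unadjusted p under 0.05 in either tissue (limma). The shares of all probes were 0.0413% and 2.82% in the hypothalamus, and 0.0194% and 1.8% in the eye. Over these genes the median difference was 0.12 in the hypothalamus and -0.07 in the eye.

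**Figure D2:**
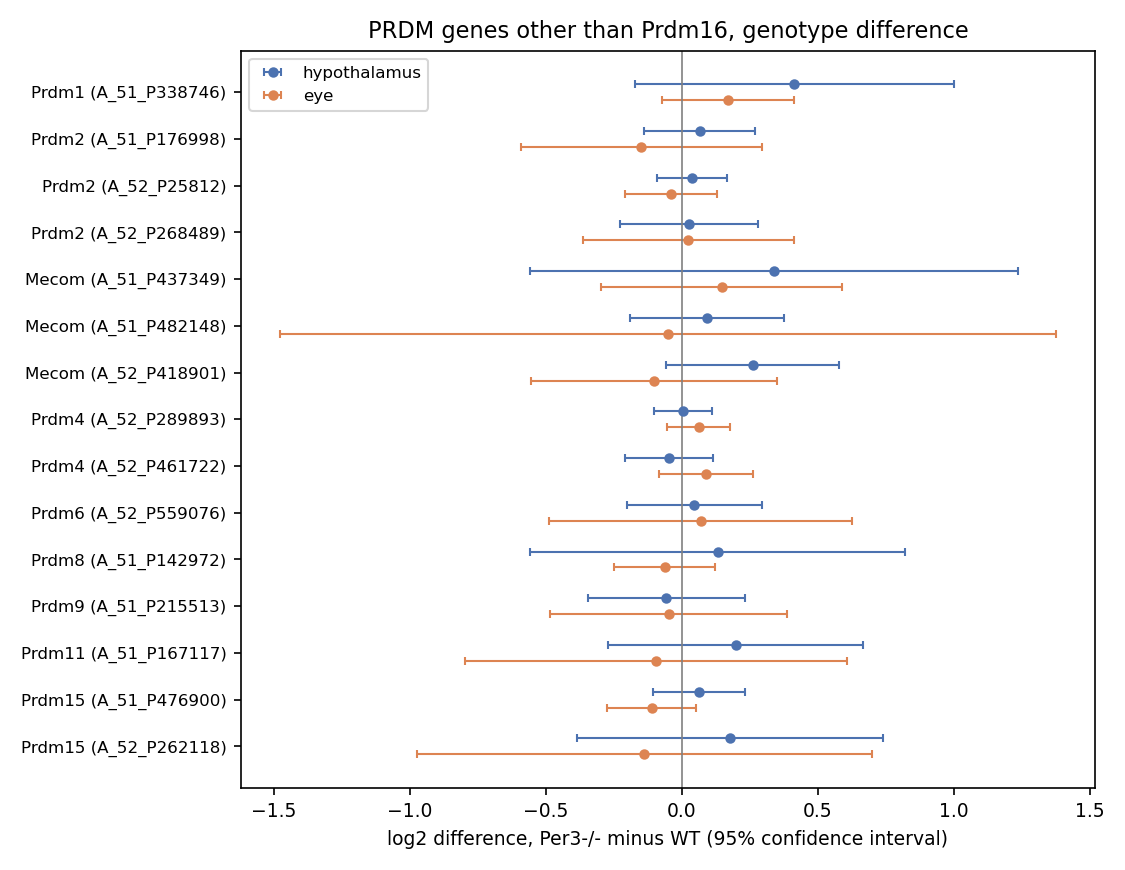
Difference between Per3-/- and WT mice (log2, x axis) for the PRDM probes analysed here other than that of Prdm16 (y axis), in the hypothalamus and the eye. Points are limma estimates and bars 95% confidence intervals; each bar spans 0.

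Between the tissues most paralog probes differed, as most probes of the array did. In WT mice 5 of the 7 probes were higher in the eye and 1 was lower (limma, adjusted p under 0.05), and with Prdm16 the count was 7 of 8 probes, where 74.9% of all probes were called (41.6% higher and 33.3% lower). In Per3-/- mice it was again 5 higher and 1 lower of the 7, beside 75.1% of all probes (42.1% higher and 32.9% lower), so the share called was near that of the whole array. Over all probes the median eye minus hypothalamus difference was 0.15 in WT and 0.23 in Per3-/- mice, and it moved to -0.07 and -0.06 with quantile normalization and to 0.13 and 0.59 with normexp, so small differences depend on the scaling. Every eye lay above every hypothalamus for 6 of the 8 probes in WT mice, beside 29.2% of all probes, and for 4 of 8 in Per3-/- mice, beside 29.0%. The median over the 7 paralog probes was 0.53 in WT and 0.63 in Per3-/- mice.

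Prdm1 differed most between the tissues. In WT mice it ran from -5.61 over -5.43 to -5.20 in the hypothalamus and from -1.46 over -1.14 to -0.85 in the eye. In Per3-/- mice it ran from -5.58 over -5.26 to -3.17 and from -1.22 over -1.08 to -0.63. All eyes lay above all hypothalami, and the difference was 4.23 (95% confidence interval 4.03 to 4.44, 18.8-fold, adjusted p = 2.1e-15 from limma) in WT and 3.99 (3.35 to 4.63, 15.9-fold, adjusted p = 4.34e-09) in Per3-/- mice. Surface epithelium markers (3 of 3) and plasma and B cell markers (4 of 4) were also higher in the eye, with sums of -1.65 to -0.76 in the eye against -3.46 to 0.34 in the hypothalamus for the latter, and their part in the Prdm1 difference was not tested. The hypothalamus of Per3-/- mouse 7 stood alone at -3.17, with mouse 1 next at -4.58.

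Among the 10 partners and targets of Prdm1 on a list from textbook knowledge, all had a probe, and 5 were higher and 2 lower in the eye of WT mice, beside 41.6% and 33.3% of all probes. Otx2, an activator of Prdm1 in photoreceptor precursors, was higher in the eye by 3.97 in WT and by 3.80 in Per3-/- mice. The rod factor Nrl was higher by 10.55 in WT mice. Crx was not well above background in any WT hypothalamus and stood at 2.90 ± 0.20 in the WT eye (SD, n = 7). Irf4, which acts with Prdm1 in plasma cells, was also not well above background in any WT hypothalamus. It stood at -4.98 ± 0.30 in the WT eye (SD, n = 7), while Pax5 was well above background on 1 array in all. The median difference of the list was 0.19 in WT mice. Between genotypes 0 of 10 were called in either tissue (limma), with 0 in the hypothalamus and 1 in the eye at an unadjusted p under 0.05.

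Prdm8 was the second large tissue difference. Its level in WT mice ran from -0.50 over -0.22 to 0.91 in the hypothalamus and from 2.51 over 2.78 to 2.95 in the eye. In Per3-/- mice it ran from -0.86 over 0.01 to 1.29 and from 2.44 over 2.65 to 2.95. The eye was higher by 2.72 (2.32 to 3.13, 6.61-fold, adjusted p = 1.53e-09 from limma) in WT and by 2.53 (1.88 to 3.18, 5.77-fold, adjusted p = 1.33e-06) in Per3-/- mice, without overlap. The eyes were alike, with SDs of 0.14 and 0.17, and the hypothalami were not, with SDs of 0.50 in WT and 0.83 in Per3-/- mice.

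**Figure D3:**
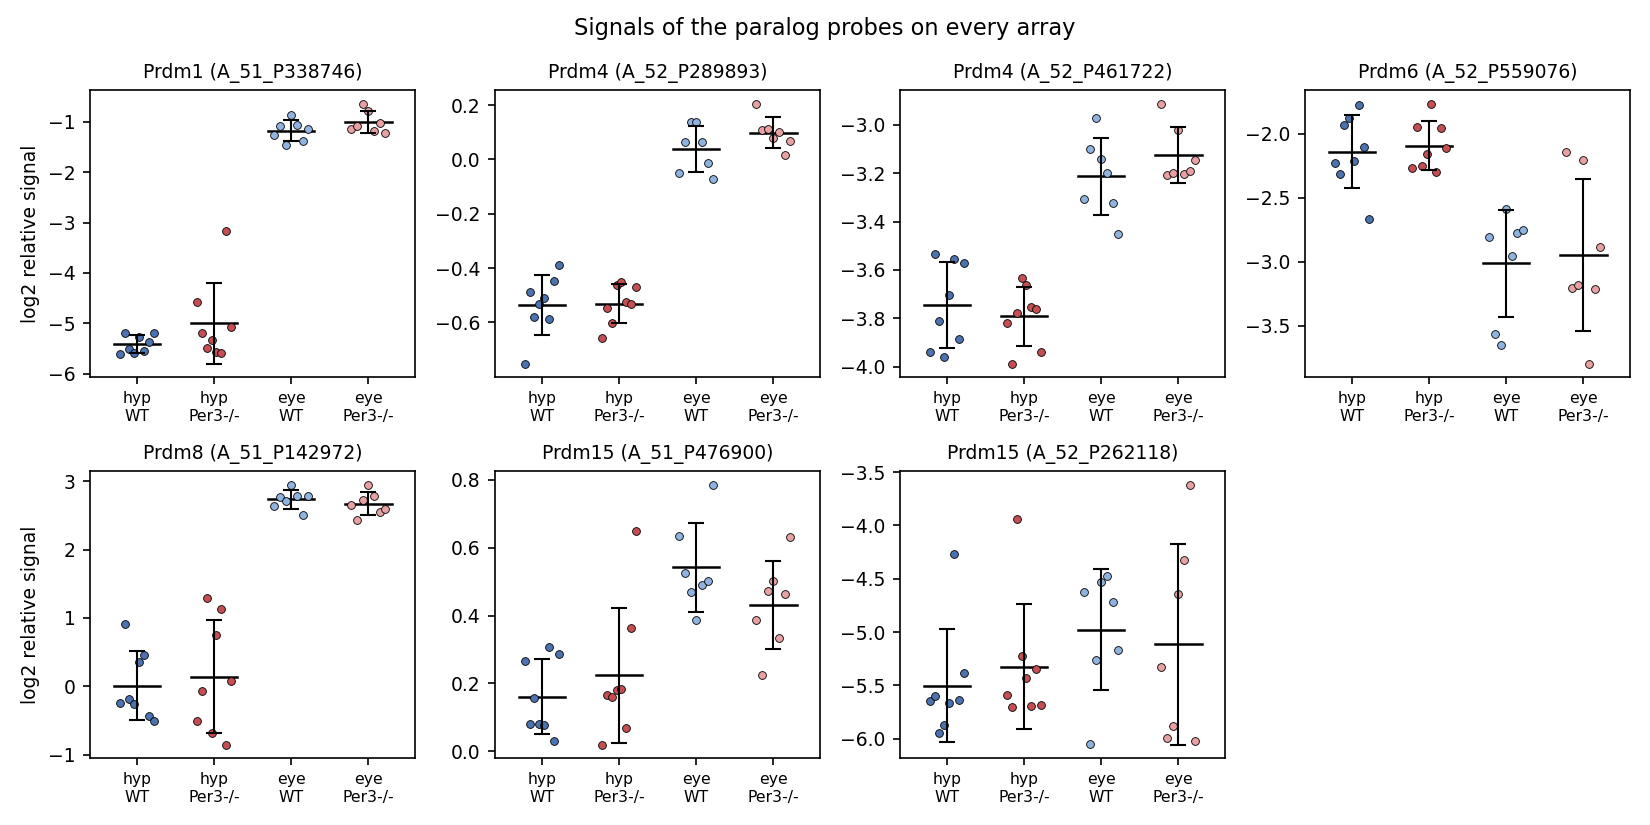
Signals of the 7 paralog probes (log2, relative to the 75th percentile, y axis with its own scale in each panel) on every array, by tissue and genotype (hyp, hypothalamus). Points are mice, lines means and bars SD; Prdm1 (4.23 in WT) and Prdm8 (2.72) show the widest gaps between tissues.

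The spread of Prdm8 among the hypothalami ran with that of Bhlhe22, a bHLH factor that forms a repressor complex with PRDM8 in neurons. Over the 16 hypothalamus arrays Pearson's r was 0.96 and Spearman's rho 0.93 (permutation tests, two-sided, p = 2e-05 each, the smallest that 100000 permutations can give, and 0.0004 adjusted over 20 relations, those of Prdm8 with 10 genes in 2 tissues). These relations were not among the planned tests and were run for Prdm8 alone, a choice that the adjustment does not cover. Without the 2 arrays farthest from the median of Prdm8, r was 0.95. It was 0.96 within WT and 0.97 within Per3-/- mice, and 0.94 with the slide means taken out. Of 29627 probes well above background on at least 8 of these arrays, the Bhlhe22 probe had the highest r to Prdm8, a rank looked up after the values were seen. The Prdm8 levels were highest in Per3-/- mice 3 (1.29) and 6 (1.13) and in WT mouse 2 (0.91), where Bhlhe22 stood at -0.36, -0.78 and -0.50. They were lowest in Per3-/- mice 7 (-0.86) and 4 (-0.68), where Bhlhe22 stood at -2.02 and -1.87. In the eye, where both varied less, r was 0.60 and rho 0.55 (permutation tests, p = 0.0239 and 0.0456, adjusted p = 0.119 and 0.25) and did not pass.

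Bhlhe22 itself did not share the tissue order of Prdm8 at its full size: it was higher in the eye by 0.52 (adjusted p = 0.0175 from limma) in WT and by 0.40 (adjusted p = 0.106) in Per3-/- mice. Of the other 9 genes of that list, Ehmt2 (G9a), a histone methyltransferase bound by several PRDM proteins, ran against Prdm8 in the hypothalamus (r = -0.78, rho = -0.75, permutation p = 0.00042 and 0.00122, adjusted p = 0.0042 and 0.0122), and r was -0.57 without the 2 farthest arrays. In the eye r was 0.09 and rho 0.13. Ehmt2 varied little among the hypothalami, with SDs of 0.05 in WT and 0.07 in Per3-/- mice. Choroid plexus markers varied among the same blocks, with a summed level of 1.205 to 4.398. In WT mice the sum moved with Prdm8: it was 3.14, 3.81 and 4.07 in mice 2, 5 and 6, which had the highest Prdm8 levels (0.91, 0.35 and 0.46), and 1.205 to 1.81 in the other 5, where Prdm8 lay below 0. Among Per3-/- mice it was high in mice 3 and 6 (4.21 and 4.398), which had the highest Prdm8, and in mouse 4 (4.39), where Prdm8 stood at -0.68, and it was low in mouse 5 (1.37), where Prdm8 stood at 0.75. The part of the dissection in the Prdm8 spread was not tested.

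**Figure D4:**
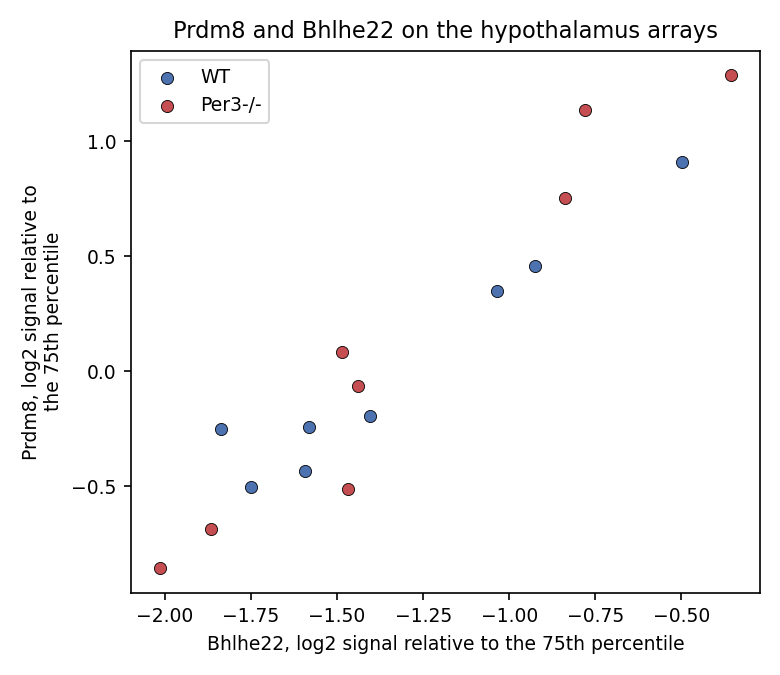
Prdm8 level (y axis) against Bhlhe22 level (x axis), both log2 signals relative to the 75th percentile, on the 16 hypothalamus arrays, coloured by genotype. The points of both genotypes follow one rising line, from Prdm8 at -0.86 and Bhlhe22 at -2.02 to 1.29 and -0.36.

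Prdm4 and Prdm15 differed less between the tissues. Prdm4 probe A_52_P289893 was higher in the eye by 0.57 (0.45 to 0.70, adjusted p = 1.73e-07 from limma) in WT and 0.63 (0.53 to 0.73, adjusted p = 6.01e-09) in Per3-/- mice, with no overlap. Its other probe, A_52_P461722, was higher by 0.53 (adjusted p = 4.83e-05) and 0.67 (adjusted p = 2.13e-07), but with quantile normalization the WT difference was 0.01 (adjusted p = 0.935). Prdm15 probe A_51_P476900 was higher in the eye by 0.38 (0.24 to 0.52, adjusted p = 7.68e-05) in WT mice. In Per3-/- mice it was higher by 0.21 (0.01 to 0.40, adjusted p = 0.0493), a call that normexp (0.08, adjusted p = 0.446), the slide as a random block (0.21, adjusted p = 0.0517) and keeping the marked spots (0.21, adjusted p = 0.050) did not make, nor did 11 of the 15 fits that each left out 1 array (any Per3-/- eye but those of mice 3 and 6, any Per3-/- hypothalamus but those of mice 7 and 8). The other Prdm15 probe was not called in either genotype (0.53, adjusted p = 0.087, and 0.21, adjusted p = 0.613), though in WT mice it was without WT eye 3 (0.70, adjusted p = 0.0133) or WT hypothalamus 6 (0.70, adjusted p = 0.00792), and its sign turned with quantile normalization (-0.19 and -0.44).

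Prdm6 went the other way. It ran from -2.66 over -2.16 to -1.77 in the WT hypothalamus and from -3.65 over -2.81 to -2.59 in the WT eye, a difference of -0.87 (-1.25 to -0.50, adjusted p = 0.000297 from limma). In Per3-/- mice the difference was -0.85 (-1.30 to -0.40, adjusted p = 0.00172), and -0.38 (adjusted p = 0.0982) with normexp. The ranges of the tissues overlapped in both genotypes. All 4 smooth muscle markers, the tissue in which Prdm6 acts, were higher in the eye, with sums of 5.40 to 6.12 against 3.15 to 3.51.

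Among the other PRDM genes, Mecom probe A_52_P418901 was higher in the eye by 2.04 (adjusted p = 4.2e-08 from limma) in WT mice, where none of its values overlapped with those of the hypothalamus, and by 1.68 (adjusted p = 2.84e-07) in Per3-/- mice. Prdm2 was lower in the eye, with differences of -0.77 (adjusted p = 2.07e-08) and -0.85 (adjusted p = 3.31e-08). Of the 4 genes 3 were called higher and 1 lower in each genotype, beside 74.9% and 75.1% of all probes called, but Prdm9 is among the 3 with a signal not well above background.

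Of the genes whose products work with PRDM16, none was called between genotypes, and few probes of the whole array were. Of 12 on the list 11 had a probe, and only the brightest probe of each was counted. At these probes 0 of 11 were called in the hypothalamus or in the eye, with 0 at an unadjusted p under 0.05 in each (limma). Of all probes 0.0413% were called in the hypothalamus and 0.0194% in the eye, and 2.82% and 1.8% had an unadjusted p under 0.05. At such shares a count of 0 among 11 says little about the partners. Their median difference was 0.05 in the hypothalamus and 0.00 in the eye, and the extremes were -0.01 and 0.28, and -0.09 and 0.21. The corepressor genes Ctbp1 and Ctbp2 differed by -0.01 and 0.06 in the hypothalamus and by 0.06 and -0.03 in the eye, and Ehmt1, the methyltransferase of the brown fat complex, by 0.02 and -0.09. Pparg, the adipocyte regulator, had the widest interval (0.28, -0.10 to 0.65, and 0.21, -0.15 to 0.58). Between the tissues all 11 were called in both genotypes, 7 higher and 4 lower in the eye, where 74.9% (WT) and 75.1% (Per3-/-) of all probes were called. Cebpb, which acts with PRDM16 at the start of the brown fat programme, was higher in the eye by 2.59 in WT mice and Ctbp2 by 2.08. Med1 was lower at its brightest probe, at -1.57, but its other probes went the other way. In WT mice A_52_P176300 had means of -0.33 in the hypothalamus and -0.09 in the eye, and A_52_P301166 of -3.70 and -3.39.

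Fat in the eye samples varied from mouse to mouse. The 4 adipose markers summed to 0.30 to 3.93 in WT and to 0.06 to 4.58 in Per3-/- eyes, against -4.14 to -3.48 in the hypothalamus. Adiponectin ranged from -1.54 to 2.27 and from -1.68 to 2.63. None of the 4 was called between genotypes (limma). In the hypothalamus 3 had an unadjusted p under 0.05, beside 2.82% of all probes. Of these, adiponectin was well above background on 1 hypothalamus array and Ucp1, the brown fat uncoupling protein, on none. Plin1 was so on all of them, at -4.96 ± 0.17 in WT and -5.24 ± 0.18 in Per3-/- mice (SD, n = 8 each). Cidec, the remaining marker, stood at -5.06 ± 0.17 and -5.03 ± 0.25 (SD, n = 8 each). Ucp1 was well above background on 3 of 7 eyes of each genotype, at -5.74 ± 1.42 and -5.76 ± 1.28 (SD, n = 7 each). Prdm16 ranged from 1.09 to 1.48 over the same WT eyes.

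Of the 10 genes tied to Prdm4, Prdm6, Prdm8, Prdm10 and Prdm15, all had a probe. At the brightest probe of each, 0 were called between genotypes in either tissue, also at an unadjusted p under 0.05 (limma). The shares of all probes were 0.0413% and 2.82% in the hypothalamus, and 0.0194% and 1.8% in the eye. The 10 genes include Flcn, a gene that Prdm10 activates, which stood 1.29 higher in the eye of WT mice and differed by -0.01 and 0.02 between genotypes. Ngfr, the neurotrophin receptor that binds PRDM4, was 2.34 higher and Cbx5, the heterochromatin protein HP1 alpha, was lower, at -2.51.

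On chromosome 4 the nearest genes on either side of the Prdm16 probe mostly did not share its difference. Prdm16os (A_52_P1124229), the noncoding transcript that starts beside the Prdm16 promoter and runs the opposite way, has its probe 0.33 Mb from that of Prdm16. It differed between genotypes by 0.16 in the hypothalamus (-0.13 to 0.44) and -0.03 in the eye (-0.28 to 0.22), and it was lower in the eye than in the hypothalamus (-1.03, adjusted p = 3.24e-07 from limma, in WT mice), opposite to Prdm16 in WT. Arhgef16, 0.04 Mb away on the other side, differed by 0.02 (-0.32 to 0.36) and 0.01 (-0.20 to 0.23), and Tprgl, 0.16 Mb away, by 0.07 and 0.03. Megf6, which encodes a protein with EGF-like repeats 0.04 Mb from the Prdm16 probe, was the exception among the 6 neighbours. It ran from -1.91 to -1.69 in WT and from -3.06 to -2.27 in Per3-/- hypothalami, without overlap, and fell by 0.79 (limma, adjusted p = 0.003). The eye gave a difference of -0.58 (limma, adjusted p = 0.735), which was not called but had an unadjusted p under 0.05, as 1.8% of all probes did. There Megf6 ran from -2.79 to -2.57 in WT and from -3.71 to -2.68 in Per3-/- mice, with overlap. Gm13112 and Ttc34, 0.55 Mb away, were not called.

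The 5 named probes with the pattern most like Prdm16, by Pearson's r over the 30 arrays after each tissue's mean was taken out (among 26724 probes well above background on at least 15 arrays), were Kcnab2 (r = 0.92), Slc2a5 (0.91), Rpl22 (0.85), Megf6 (0.84) and C1qtnf12 (0.81). The arrays share the genotype contrast that chose Prdm16, so the values describe the likeness and carry no test. All 5 lie on chromosome 4, which holds 5.81% of the 40393 probes with a position. They lie 0.04 to 4.17 Mb from the Prdm16 probe, and the Per3 probe lies 3.31 Mb from it. Slc2a5, a fructose transporter, differed by -1.71 in the hypothalamus and -1.37 in the eye. Kcnab2, a potassium channel subunit, differed by -0.46 and -0.77, the ribosomal protein gene Rpl22 by -0.13 and -0.36, and C1qtnf12 by -0.60 and -0.58. All of these differences were smaller than those of Prdm16, and their tissue order was mixed: in WT mice Rpl22 (1.57) and C1qtnf12 (0.96) were higher in the eye, as Prdm16 was, and Kcnab2 (-0.80), Megf6 (-0.93) and Slc2a5 (-4.12) were lower.

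**Figure D5:**
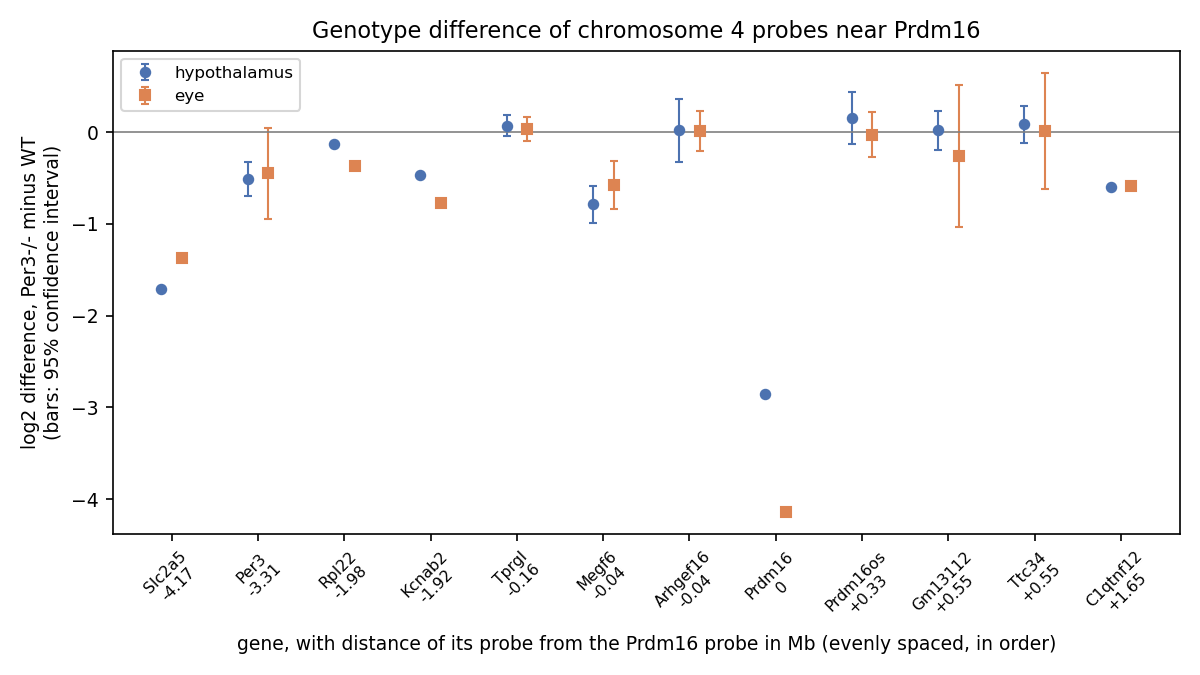
Difference between Per3-/- and WT mice (log2, y axis) for Prdm16, the 3 nearest genes on either side, the probes most like Prdm16 and Per3, in order along chromosome 4 (x axis, with the distance in Mb). Bars are 95% confidence intervals, and points without bars were chosen for this pattern. Megf6 is among the probes most like Prdm16 too, and has bars because it is also a neighbour. Prdm16 at -2.86 and -4.14 lies far below its neighbours.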

How the data were processed

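The authors hybridised Cy3-labelled RNA, 1 mouse and tissue per array, to Agilent arrays of 60-mer probes, and extracted spot intensities with Feature Extraction 10.7.1.1 (file headers). Processed intensities were deposited on a linear scale, with background subtracted and no scaling across arrays. A table of log2 values from the authors, scaled to the 75th percentile and centred per tissue, served only as an alternative within a tissue. Control spots, and spots marked uneven or as outliers (at most 91 an array), were left out.

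Here processed intensities were divided by the 75th percentile of their array, put on the log2 scale and fitted with limma 3.58.1 (R 4.3.3) over all 41174 probes, by genotype within tissue, by tissue within genotype, and for their interaction, two-sided, adjusted by Benjamini-Hochberg over the whole array at a threshold of 0.05. Fits were tested on simulated data. In the hypothalamus simulation of 41174 probes, 85.0% of 200 probes changed by 1 log2 unit were recovered, and 66.5% in the eye. For a change of 0.5 log2 units the shares were 59.5% and 33.0%. Other values came from Python 3.11.15, numpy 2.4.6, pandas 2.3.3 and scipy 1.17.1.

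Members and gene lists were chosen with earlier results of these data known. The rule for named genes took all member probes, the listed genes (partners and targets, other PRDM genes, the brightest probe of each), the 3 nearest genes on each side of the Prdm16 probe and the 5 likest probes. Symbols came from RefSeq by accession (27027 probes), symbol (5011) or synonym (796), otherwise from the files (8340). Positions are those of the hypothalamus files (mm9); the eye files hold none. Marker lists also covered ependyma, endothelium and skeletal muscle. Hdac1, Kcnj13, Prdm12, Prdm13, Prdm14 and Zfp408 are not analysed here, and 2 further listed genes are not reported.

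Each tissue had 4 slides with both genotypes, and no scan date covered both tissues. In both tissues, WT and Per3-/- samples that share a number lay on the same slide. They deviated together in the eye (r = 0.11 to 0.63 in all 6 pairs) and not throughout in the hypothalamus (-0.03 to 0.32). Both tissues came from the same set of mice, but whether a number names the same mouse in both is not given in the sources used here. The main fits between tissues therefore left out the pairing, and same-numbered samples did not deviate together (r = -0.06 to 0.12 in WT, -0.12 to 0.16 in Per3-/-). Alternatives were quantile normalization, normexp (offset 50), a filter on dim probes, spots kept despite marks, the deposited values, the methods' t-test, slide and replicate blocks, and leaving out each array. The slide as a random block was added after seeing the data.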

Additional observations from a re-analysis of the deposited data

Results flagged for a closer look

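Among 32 groups (8 probes in 4 groups of mice), 3 held an array far from the others, where chance gives about 1 in 20 groups. The hypothalamus of Per3-/- mouse 7 was high for Prdm1, at -3.17 against -4.58 for the next, a gap of 0.584 of the group's range. The Prdm15 probe A_52_P262118 was high in the hypothalamus of WT mouse 6, at -4.26 against -5.39 (0.667 of the range), and in that of Per3-/- mouse 3, at -3.94 against -5.22 (0.728 of the range). The other Prdm15 probe stood at 0.31 and 0.16 on those 2 arrays, within its group.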

How the results depend on the processing

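No paralog probe was called between genotypes in either tissue under any alternative run, including the methods' t-test (14 probes called over the whole array in the hypothalamus and 7 in the eye). Prdm16 was chosen for its genotype difference, so its values here only describe: -2.86 in the hypothalamus and -4.14 in the eye with the replicate block, and -3.55 in the eye with normexp. For the difference between the tissues' genotype effects the count of members was 0 with normexp against 1, Prdm16 itself, and the cause was not tested. With the replicate number as a block, the tissue comparisons gave 8 called members in WT and 7 in Per3-/- mice, Prdm16 in Per3-/- mice gave -0.32 (limma, adjusted p = 0.0495) and the Prdm15 probe A_52_P262118 in WT mice 0.51 (adjusted p = 0.0369). The tissues came from the same set of mice, but that a shared number names the same mouse is not given. Leaving out 1 array gave Prdm16 differences of -2.93 to -2.80 in the hypothalamus, -4.19 to -4.07 in the eye, 7 to 8 members called between tissues in WT and 5 to 7 in Per3-/- mice. Over all probes, the calls between genotypes went from 17 to 10 with normexp and to 5 with the replicate block in the hypothalamus, from 8 to 4 and to 1 in the eye, and the calls for the interaction from 2 to 0 with normexp and to 1 with quantile normalization. Called probes higher in the eye were 55.52% of all called in WT and 56.14% in Per3-/- mice, and with quantile normalization 46.91% and 46.43%. Uncalled differences near 0 changed sign. The Prdm15 probe A_52_P262118 gave -0.061 in the hypothalamus and 0.22 in the eye with normexp, and -0.19 and -0.44 between tissues with quantile normalization, and Prdm6 gave -0.032 in the eye with the replicate block. Without 1 array the genotype differences in the hypothalamus ran from -0.027 to 0.025 for Prdm4 (A_52_P289893), -0.030 to 0.097 for Prdm6, -0.032 to 0.27 for Prdm8, 0.15 to 0.50 for Prdm1 and -0.022 to 0.35 for Prdm15 (A_52_P262118). In the eye they ran from -0.066 to 0.21 for Prdm6 and -0.39 to 0.014 for Prdm15 (A_52_P262118), whose Per3-/- tissue difference ran from -0.037 to 0.41. The deposited values, centred per tissue, gave no tissue or interaction value. Signal over background limits the Prdm15 probe A_52_P262118.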

Other observations

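The ependymal markers, from cells in which Prdm16 is known to act, were all well above background in every hypothalamic block, with sums of 3.14 to 3.79 in WT and 3.11 to 4.05 in Per3-/- mice, and 0 of 4 were called between genotypes (limma), with 0 at an unadjusted p under 0.05. The 3 endothelial markers summed to -0.55 to -0.21 and to -0.37 to -0.22 in the same groups, and 0 of 3 were called. Of all probes 0.0413% were called between genotypes in the hypothalamus, and 2.82% had an unadjusted p under 0.05. Skeletal muscle markers summed to 7.01 to 8.46 over the eyes and to -1.02 to -0.64 over the hypothalami. Prdm8 and Prdm1 had their highest hypothalamic levels in different mice, Per3-/- mouse 3 for Prdm8 (1.29, with Prdm1 at -5.48) and Per3-/- mouse 7 for Prdm1 (-3.17, with Prdm8 at -0.86, its lowest).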
